A study of Mus musculus with 9 samples.

Results

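The 7 genes described here, Rgs1, Rgs2, Rgs3, Rgs10, Rgs14, Rgs16 and Rgs19, encode regulators of G protein signalling (RGS proteins). They were taken by symbol from the 23420 genes of an RNA-seq table of mouse regulatory T cells (Tregs), CD4 T cells that depend on the factor Foxp3 and hold immune responses in check. The table holds 3 groups of 3 libraries, all from WT mice. The first is synovial Tregs of mice with collagen-induced arthritis, a model of inflammatory joint disease. The second is Tregs of the draining lymph nodes of mice with collagen-induced arthritis, and the third is Tregs of the draining lymph nodes of untreated control mice. Paws and nodes were digested, and cells were sorted on the YFP of a Foxp3 reporter, which all groups carry. By their titles, synovial and node libraries numbered 1 to 3 from arthritic mice come from the same 3 animals. The labels give no age, sex or strain, and do not say whether animals were pooled.

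A receptor coupled to a G protein acts by loading GTP onto a G alpha subunit, which then separates from its G beta-gamma partner, and both signal onward. RGS proteins speed up the hydrolysis of that GTP, so the signal ends sooner. In lymphocytes they are best known for limiting responses to chemokines, whose receptors act mainly through G proteins of the Gi class.

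The table holds 20 numbered Rgs genes. The 7 members are the most abundant of them, with means over the 9 libraries of 192 normalized counts or more, against 106 or less for each of the others. A normalized count is a gene's reads after scaling by the size factor of the library. Of the members, 3 lie on chromosome 1. On the GRCm38 assembly, also called mm10, Rgs2 spans chr1:143999338-144004161 on the minus strand and Rgs1 spans chr1:144242296-144249242 on the minus strand. Rgs16 spans chr1:153740349-153745468 on the plus strand. The other members are dispersed, with Rgs19 at chr2:181688419-181693977, Rgs3 at chr4:62559847-62704001, Rgs10 at chr7:128373621-128418758 and Rgs14 at chr13:55369732-55384687. Rgs13 lies between Rgs2 and Rgs1, and Rgs18 lies in the same stretch of chromosome 1. Both had 0 reads in all 9 libraries, which allows up to 3 reads per library, or 2.61 to 3.52 normalized counts. This limit covers counting error only.

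Promoter sequences of 5 members were in the set of RefSeq promoters on GRCm38.p6 used here, which had no entry for Rgs1 or Rgs14. Those of Rgs2 and Rgs16 are shown because these genes had the largest differences between synovial and node Tregs. Each window is the 250 bases before the RefSeq transcription start, written 5′ to 3′ on the gene's own strand. The windows are chr1:144004150-144004399 on the minus strand for Rgs2 and chr1:153740103-153740352 on the plus strand for Rgs16. Both reach into the gene spans given above, which come from the GENCODE annotation, so distances hold for the RefSeq starts only. Capitals mark TAAAAGCC, the longest run that both windows hold at the same distance from the start, beginning 28 bases before it. It was picked after the sequences were seen.
Rgs2: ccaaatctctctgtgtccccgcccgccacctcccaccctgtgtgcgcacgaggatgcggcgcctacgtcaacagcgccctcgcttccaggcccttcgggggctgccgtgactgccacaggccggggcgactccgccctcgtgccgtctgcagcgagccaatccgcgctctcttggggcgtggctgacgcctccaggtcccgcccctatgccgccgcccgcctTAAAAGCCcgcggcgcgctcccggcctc
Rgs16: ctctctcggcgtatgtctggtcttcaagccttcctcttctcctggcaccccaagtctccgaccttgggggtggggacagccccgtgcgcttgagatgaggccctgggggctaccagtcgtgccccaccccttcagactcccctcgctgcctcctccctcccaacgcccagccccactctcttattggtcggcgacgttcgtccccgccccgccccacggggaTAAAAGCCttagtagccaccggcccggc
The Rgs2 window is 72.4% G or C, and the Rgs16 window 66.4%. Of all 32851 promoters in that set, 0.971% hold TAAAAGCC on either strand and 0.033%, or 11 promoters, hold it on the same strand at the same place. Among the 8 windows of the 5 members, the Rgs2 and Rgs16 windows were the 2 that hold it, which follows from how it was picked. How often promoters share a run of this length at the same place was not tested.

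The 8 windows were also searched on both strands for motifs of factors that act in stimulated T cells. These were the AP-1 motif TGANTCA, held by 6.75% of all promoters, the CRE motif TGACGTCA, held by 1.55%, the NF-kB motif, held by 3.90%, and the NFAT core GGAAAA, held by 20.4%. With 1 match in all, no motif overlapped another. It was GGAAAA in one of the Rgs19 windows, 187 bases before the start. None of the other letters searched is in these windows.

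In the joint the members split by direction. Rgs2, Rgs16 and Rgs1 were higher in synovial Tregs than in node Tregs of the same arthritic mice, and Rgs3, Rgs10, Rgs14 and Rgs19 were lower. All 7 passed the test, limma on log2(normalized count + 1) with Benjamini-Hochberg adjustment over 11357 genes and a threshold of 0.05. Over all genes tested in this comparison, 33.8% were called, 17.9% higher and 15.9% lower, so single calls were common. Of these calls 52.9% were higher, and 42.2% under quantile normalization. For each of the 7, the synovial libraries did not overlap the arthritic node libraries, against 48.2% of all genes tested, 25.2% with synovial Tregs higher and 23.0% with them lower.

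Rgs2 encodes a small RGS protein that prefers G alpha of the Gq class and can also restrain adenylyl cyclase. It had 22039, 14663 and 19881 normalized counts in synovial Tregs of mice 1 to 3, against 566, 592 and 366 in their node Tregs. Control node Tregs held 358, 329.5 and 335. Every synovial library was far above every node library, and the lowest synovial value still exceeded the highest node value many times over. Rgs2 rose 37.3-fold in synovial Tregs over arthritic node Tregs (log2 fold change 5.22 ± 0.19 SE, limma adjusted p = 5.49e-09, n = 3 per group). In mice 1 to 3 the synovial value was 38.9, 24.8 and 54.3 times the node value.

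Rgs16, whose product acts on Gi and Gq alpha and slows the migration of mouse T cells toward chemokines, had 2168, 2148 and 5753 normalized counts in synovial Tregs. The same mice had 235, 325 and 102 in node Tregs, and control node Tregs had 209, 175 and 173. The synovial libraries were all higher, but library 3 stood above libraries 1 and 2. Rgs16 rose 15.0-fold over arthritic node Tregs (log2 3.91 ± 0.42 SE, limma adjusted p = 2.24e-05). The ratio within a mouse was 9.24, 6.60 and 56.3, because mouse 3 had both the highest synovial and the lowest node value. Without synovial library 3, or any other single library, the log2 difference stayed between 3.43 and 4.26. Rgs16 exons share 236 bases with the antisense gene Gm28513. The strand setting of the counting is not given in the sources used here, so reads of that stretch may belong to either gene.

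Rgs1 dampens chemokine receptor signals in lymphocytes and was first found as a gene switched on in activated B cells. It had the highest counts of the family, with 23979, 18732 and 36395 in synovial Tregs, 13028, 6912 and 9305 in arthritic node Tregs, and 16985, 15223 and 15820 in control node Tregs. The synovial libraries were above all 6 node libraries, though by less than for Rgs2 or Rgs16. Rgs1 rose 2.69-fold over arthritic node Tregs (log2 1.43 ± 0.24 SE, limma adjusted p = 0.000555). The ratio was 1.84, 2.71 and 3.91 in mice 1 to 3.

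**Figure D1:**
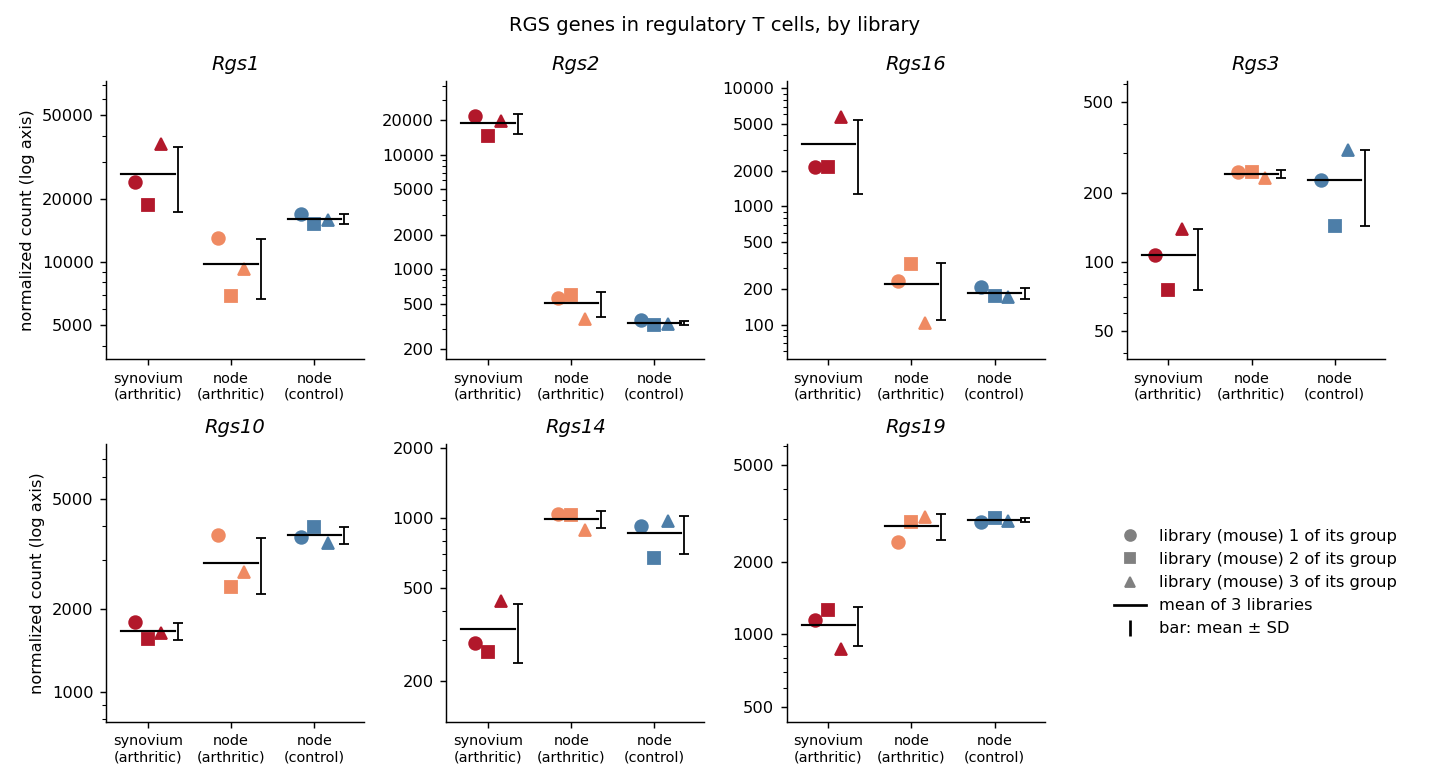
Normalized counts (log axis) of the 7 Rgs genes in each library, by group, with synovial Tregs left of arthritic node Tregs and control node Tregs on the right. Points are libraries, with shapes for the number of the mouse, lines are group means and bars the SD. Rgs2, Rgs16 and Rgs1 sit higher in the 3 synovial libraries, and Rgs3, Rgs10, Rgs14 and Rgs19 sit lower in them.

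Among the members that fell, Rgs19 had the most even values in control nodes. Its product, also called GAIP, acts on the Gi class and carries a string of cysteines that anchors it to membranes. Synovial Tregs had 1150.4, 1263 and 872 normalized counts, against 2418, 2903 and 3064 in arthritic node Tregs and 2922, 3019 and 2941 in control node Tregs. The synovial libraries were all below the 6 node libraries. Rgs19 fell 2.57-fold relative to arthritic node Tregs (log2 -1.36 ± 0.15 SE, limma adjusted p = 2.02e-05).

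Rgs14 encodes a scaffold that joins an RGS domain to domains binding Ras-type GTPases and to a GoLoco motif, which holds inactive Gi alpha. It had 292, 268 and 440.5 normalized counts in synovial Tregs, against 1046, 1033 and 894 in arthritic node Tregs and 930.4, 679 and 977 in control node Tregs. The highest synovial library, that of mouse 3, remained below every node library. Rgs14 fell 3.03-fold (log2 -1.60 ± 0.21 SE, limma adjusted p = 0.000112).

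Rgs10 encodes one of the smallest family members, built of little more than the RGS domain and selective for Gi alpha. Synovial Tregs had 1791, 1561 and 1639.5 normalized counts, against 3708, 2407 and 2717 in arthritic node Tregs and 3642, 3972 and 3467 in control node Tregs. The synovial values lay within a narrow range, below all node values. Rgs10 fell 1.74-fold relative to arthritic node Tregs (log2 -0.80 ± 0.15 SE, limma adjusted p = 0.00127), the smallest change of the 7, and it is not called if a change of at least 2-fold is required.

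Rgs3, whose gene yields several isoforms and whose product can also bind G beta-gamma, was the least abundant member. Its lowest library held 64 reads. Synovial Tregs had 107, 75.1 and 139 normalized counts, against 249, 246 and 232 in arthritic node Tregs and 229, 144 and 309.5 in control node Tregs. The highest synovial library lay just under the lowest control library. Rgs3 fell 2.32-fold relative to arthritic node Tregs (log2 -1.21 ± 0.34 SE, limma adjusted p = 0.0155). This call rests on single libraries, since the adjusted p was 0.0553 without synovial library 2 and 0.0501 without arthritic node library 1.

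Within a mouse, the 4 members that fell were lower in synovium in 3 of 3 animals. The node value was 2.10, 2.30 and 3.51 times the synovial value for Rgs19, 3.58, 3.86 and 2.03 times for Rgs14, 2.07, 1.54 and 1.66 times for Rgs10, and 2.33, 3.28 and 1.67 times for Rgs3. Mouse 3 had the largest ratio for Rgs19 and the smallest for Rgs14 and Rgs3, so no animal had the widest gap throughout. In sorted bulk cells, a change in the share of cells that express a gene and a change in the RNA per cell cannot be told apart. The authors' deposited table, a DESeq2 comparison of the same 6 libraries, calls all 7 genes in the same directions. In the authors' deposited table Rgs2 has a log2 fold change of 5.19 with an adjusted p-value of 5.47e-138, and Rgs3 one of -1.20 with an adjusted p-value of 0.00248.

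**Figure D2:**
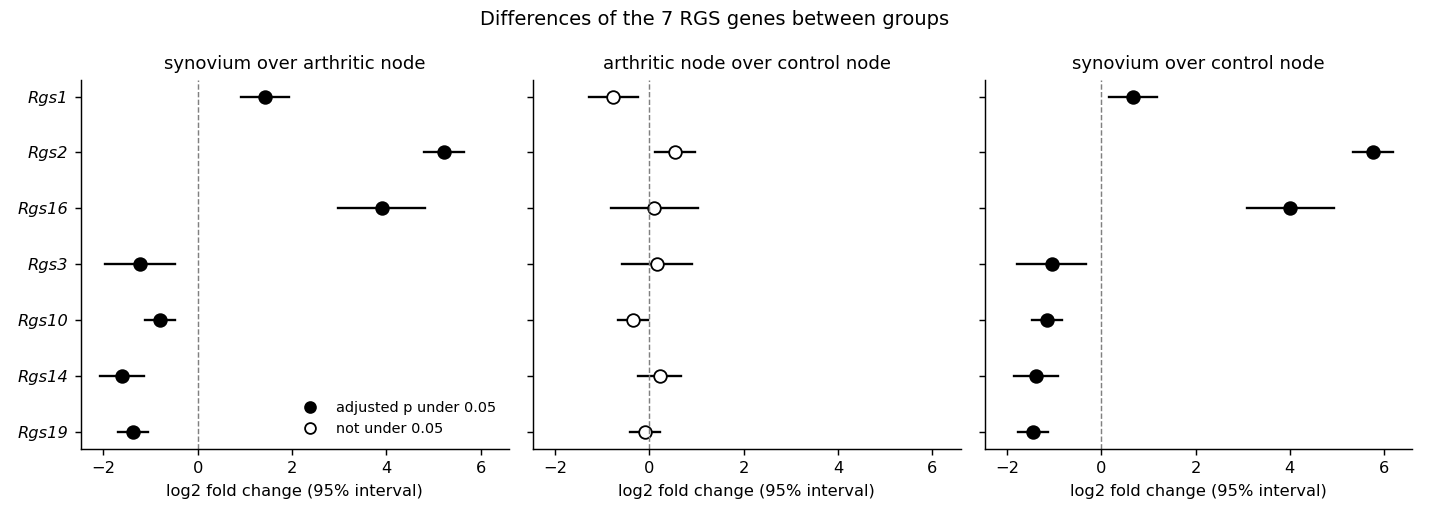
Log2 fold changes of the 7 Rgs genes in each comparison, with 95% confidence intervals from limma. In synovial against arthritic node Tregs and in synovial against control node Tregs, 3 genes lie above 0 and 4 below, and in arthritic against control node Tregs the values run from -0.76 to 0.54, with no gene called.

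In the draining node, arthritic mice were compared with untreated controls, so arthritis and the treatment that induced it differ together. The log2 differences of the members ran from -0.76 to 0.54. None of the 7 members was called between arthritic and control node Tregs by limma, edgeR or DESeq2, and 0.343% of all genes tested were called by limma, 0.335% higher and 0.00881% lower. Of these calls 97.4% were higher, and 78.6% of those made with DESeq2. At an unadjusted p under 0.05, 3 of the 7 members passed, against 9.08% of all genes tested. Rgs1 averaged 9748 ± 3082 normalized counts in arthritic node Tregs and 16009.5 ± 896 in control node Tregs (SD, n = 3 each). Its arthritic libraries were all below its control libraries, with a log2 difference of -0.76 ± 0.24 SE (95% interval -1.27 to -0.25, limma adjusted p = 0.304). Rgs2 averaged 508 ± 124 in arthritic and 341 ± 15.3 in control node Tregs, and here the arthritic libraries were all above the control libraries. Its log2 difference was 0.54 ± 0.19 SE (interval 0.12 to 0.96, limma adjusted p = 0.406). Groups did not overlap for these 2 of the 7 members, beside 14.9% of all genes tested, 7.89% with the arthritic libraries higher and 7.03% with them lower.

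For Rgs10 the log2 difference between arthritic and control node Tregs was -0.35 (95% interval -0.67 to -0.03), with an unadjusted limma p of 0.0357 and an adjusted p of 0.517. The intervals of the other members included 0. They ran from -0.82 to 1.02 for Rgs16, from -0.58 to 0.90 for Rgs3, from -0.25 to 0.68 for Rgs14 and from -0.41 to 0.23 for Rgs19. At the wide end these intervals allow about a doubling of Rgs16, so equal levels are not shown.

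Set against control nodes, where tissue and disease differ together, synovial Tregs showed the same split of 3 higher and 4 lower, and all 7 passed. This comparison uses the synovial libraries again, so it is not independent of the first, and 40.1% of all genes tested were called, 21.6% higher and 18.5% lower. Of these calls 53.9% were higher, and 42.1% under quantile normalization. No library of the 2 groups overlapped for any of the 7, beside 26.2% of all genes tested with synovial Tregs higher and 23.8% with them lower. Rgs2 was 54.4-fold higher (log2 5.77 ± 0.19 SE, limma adjusted p = 1.5e-09) and Rgs16 16.1-fold higher (log2 4.01 ± 0.42 SE, adjusted p = 1.34e-05). Rgs19 was 2.73-fold lower (adjusted p = 9e-06), Rgs14 2.61-fold lower (adjusted p = 0.000265) and Rgs10 2.22-fold lower (adjusted p = 6.81e-05).

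The remaining calls against control nodes, those of Rgs1 and Rgs3, were fragile. Rgs1 was 1.59-fold higher (log2 0.67 ± 0.24 SE, limma adjusted p = 0.0396). Its adjusted p passed 0.05 without synovial library 1 (0.0723) or 3 (0.174), and without control library 1 (0.0675), 2 (0.0995) or 3 (0.0809). It was 0.0565 with DESeq2, and under quantile normalization the log2 difference shrank to 0.15 (adjusted p = 0.631). Rgs3 was 2.08-fold lower (log2 -1.05 ± 0.34 SE, limma adjusted p = 0.0268). Its adjusted p was 0.0574 and 0.0910 without synovial libraries 1 and 2, and 0.0656 and 0.106 without control libraries 1 and 3.

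The spread between mice differed by gene. In synovial Tregs the coefficient of variation was 61.8% for Rgs16, 34.4% for Rgs1 and 30.0% for Rgs3, but 7.03% for Rgs10. In arthritic node Tregs it was 50.8% for Rgs16, 31.6% for Rgs1 and 3.64% for Rgs3. In control node Tregs it was 10.9% for Rgs16, 5.60% for Rgs1 and 1.74% for Rgs19, the lowest, and reached 36.5% for Rgs3. Rgs2, at 20.1%, 24.3% and 4.48% in synovial, arthritic node and control node Tregs, and Rgs19, at 18.4%, 12.0% and 1.74%, also varied least in control mice, as did Rgs10, at 7.03%, 23.1% and 6.95%. Rgs3 and Rgs14 did not, the second with 28.1%, 8.54% and 18.6%. These are descriptions of 3 libraries a group.

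Levels of different genes were compared per kilobase of the principal transcript. On that scale synovial Tregs were dominated by Rgs1 and Rgs2, with 6865 ± 2362 and 6243 ± 1255 normalized counts per kilobase (SD, n = 3). These differ by less than their spread, and their order changes with the library. Below them stood Rgs10 at 1890 ± 133, Rgs16 at 1435 ± 887.5, Rgs19 at 725 ± 133, Rgs14 at 141.5 ± 39.7 and Rgs3 at 27.6 ± 8.26. Rgs10 and Rgs16 exchanged places in library 3. With all exon bases of a gene as its length, Rgs16 stood above Rgs10 in libraries 2 and 3.

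In arthritic node Tregs, Rgs10 led with 3345 ± 772 normalized counts per kilobase. Rgs1 had 2538 ± 802 and Rgs19 1850 ± 222.5, values that overlap between libraries. The order continued with Rgs14 at 421 ± 35.9, Rgs2 at 168 ± 40.9, Rgs16 at 94.4 ± 48.0 and Rgs3 at 62.4 ± 2.27. Control node Tregs had Rgs10 at 4197 ± 292 and Rgs1 at 4168 ± 233, again not separated, then Rgs19 at 1959 ± 34.1 and Rgs14 at 366 ± 68.1. Rgs2 at 113 ± 5.06, Rgs16 at 79.3 ± 8.64 and Rgs3 at 58.5 ± 21.4 closed the list. Rgs3 stood above Rgs16 in arthritic node library 3 and in control node library 3. In the nodes, then, Rgs2, Rgs16 and Rgs3 were the lowest of the members, and Rgs10 and Rgs1 stood near the top.

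As shares of the 7 members per kilobase, Rgs2 made up 36.4% ± 5.41 in synovial Tregs, 2.02% ± 0.611 in arthritic node Tregs and 1.03% ± 0.0356 in control node Tregs. Rgs10 made up 11.2% ± 2.26 in synovial Tregs, 39.2% ± 2.56 in arthritic node Tregs and 38.4% ± 2.37 in control node Tregs. Rgs19 took 4.45% ± 1.76, 22.4% ± 5.60 and 17.9% ± 0.503 in the same order of groups. The share of Rgs1 moved less, at 39.0% ± 4.98 in synovial, 29.5% ± 4.63 in arthritic node and 38.1% ± 1.82 in control node Tregs. All exon bases of a gene were also taken as its length, an alternative chosen after seeing the data. This gave Rgs2 43.9% and Rgs1 31.2% in synovial Tregs, so which of the pair leads depends on the transcript assumed. It gave Rgs16 11.5% ± 4.75 and Rgs10 8.37% ± 1.70 there, the reverse of their order by principal transcript. Shares within a library sum to a fixed total, so a larger Rgs2 share lowers the others.

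**Figure D3:**
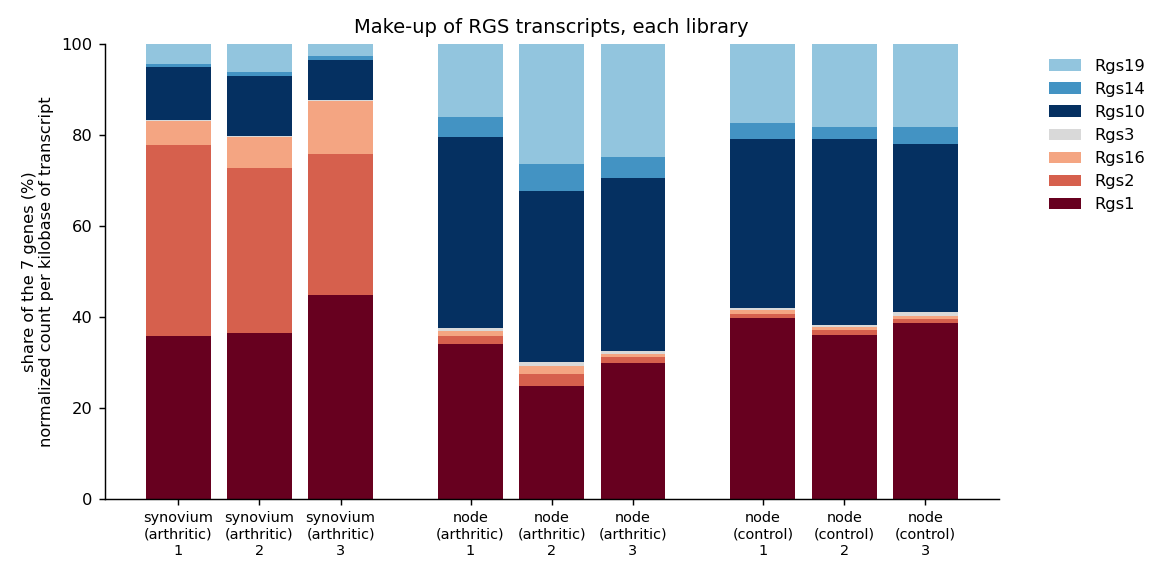
Share of each Rgs gene in the summed level of the 7 genes per kilobase of principal transcript, in percent, for each library. Rgs2 and Rgs1 fill most of the synovial bars, and Rgs10, Rgs1 and Rgs19 fill most of the node bars.

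Of the other numbered Rgs genes, 9 had 0 reads in all libraries. Rgs8 was detected in a single arthritic node library, at 4.35 normalized counts. Rgs9, known for ending the light signal in retinal photoreceptors, was called, with 152, 113 and 285 normalized counts in synovial Tregs. Arthritic node Tregs had 29.6, 18.3 and 34.9, and control node Tregs 97.4, 52.4 and 169. Its synovial libraries were above those of arthritic nodes (log2 2.63 ± 0.53 SE, limma adjusted p = 0.00227) but overlapped those of control nodes. Rgs11, Rgs12 and the RGS-domain genes Axin1 and Axin2 were not called. That 1 of 5 tested genes of the wider family rose is close to the 17.9% of all genes called higher.

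The partners of RGS proteins were followed through lists of the pathway. Of 10 G alpha genes tested, 5 rose (Gnai3 not under quantile normalization) and none fell in synovial against arthritic node Tregs, with a median log2 fold change of 0.56, beside 17.9% higher, 15.9% lower and a median near 0 over all genes. Gna13, a subunit outside the Gi, Gq and Gs classes, had 8660, 8526 and 7321 normalized counts in synovial Tregs, against 1400.1, 1543 and 1266 in arthritic node Tregs and 1308, 1036 and 1140.3 in control node Tregs. Synovial libraries were well above all others (log2 2.54 ± 0.13 SE, limma adjusted p = 4.05e-08). Gna15, a Gq-class subunit of blood cells, averaged 2444 ± 172 in synovial and 499 ± 263 in arthritic node Tregs (adjusted p = 0.000524). Gnaq rose by log2 0.93 and Gnas, which stimulates adenylyl cyclase, by 0.83. The last of the 5, Gnai3, passed at log2 0.34 (limma adjusted p = 0.0358). Its call was lost without synovial library 2 or 3 or arthritic node library 1, 2 or 3, with edgeR, and under quantile normalization, where the log2 difference was -0.01. The call was also lost with TMM scaling, without the filter on low values, without the mean-variance trend and at a 2-fold threshold.

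Gnai2, the Gi subunit most studied in chemokine responses of lymphocytes, was not called. It averaged 1169.9 ± 20.3 in synovial, 1046 ± 159 in arthritic node and 935 ± 55.2 in control node Tregs. The log2 difference between synovial and arthritic node Tregs was 0.17 ± 0.14 SE (limma adjusted p = 0.376). Of 11 G beta and G gamma genes tested, 4 rose and 1 fell, beside 17.9% higher and 15.9% lower over all genes. The list had a median log2 fold change of 0.48. Gnb1 (log2 0.99) and Gnb4 (log2 1.71) were among those that rose, and Gngt2 fell by 1.22 on the log2 scale. Gng4 had 60.6, 161 and 193 normalized counts in synovial Tregs and no read in any of the 6 node libraries.

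Other regulators of G protein signalling were called about as often as genes at large. Of 14 tested, 2 rose and 3 fell, beside 17.9% higher and 15.9% lower over all genes, with a median log2 fold change of -0.26. Plcb4, a phospholipase driven by Gq, rose by log2 1.64. Arrb2, a beta-arrestin that uncouples receptors, averaged 1164 ± 68.4 in synovial and 2190 ± 217 in arthritic node Tregs, a fall of log2 -0.91 (limma adjusted p = 8.3e-05). Gpsm3, a GoLoco protein that binds Gi alpha, fell by log2 -0.68, and Adrbk1, the receptor kinase also called Grk2, by log2 -0.59. Ric8b rose by log2 0.98 (limma adjusted p = 0.0348). This call was lost on leaving out synovial library 2 or 3 or arthritic node library 1, 2 or 3.

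Cyclic AMP effectors, which lie downstream of Gs and Gi, counted 6 higher and 3 lower of 18 tested, beside 17.9% higher and 15.9% lower over all genes. Crem, which encodes a cAMP-responsive transcription factor, had 35472, 34007 and 28151 normalized counts in synovial Tregs, against 1029, 1357 and 950.4 in arthritic node Tregs and 757, 568 and 552 in control node Tregs. That is a log2 difference of 4.88 ± 0.16 SE from arthritic nodes (limma adjusted p = 3.2e-09). The cAMP-degrading enzymes Pde4d (log2 2.70) and Pde4b (log2 1.79) rose, as did Prkar1a (log2 1.56), a regulatory subunit of protein kinase A. Prkacb, a catalytic subunit of that kinase, averaged 1967 ± 114 in synovial and 3651 ± 161 in arthritic node Tregs, a fall of log2 -0.89 (limma adjusted p = 4.24e-05), and Adcy7, an adenylyl cyclase, fell by log2 -0.75 (adjusted p = 0.00262). Pde4a rose by log2 3.42 (adjusted p = 0.0221), a call lost without synovial library 2 or 3 or arthritic node library 3. Adcy6, another adenylyl cyclase, had 0, 8.22 and 0 in synovial and 20.0, 81.8 and 56.8 in arthritic node Tregs, and was called lower.

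Receptors that couple to G proteins counted 12 higher and 6 lower of 24 tested, beside the same 17.9% and 15.9% of all genes, with a median log2 fold change of 0.88. Ccr8, a chemokine receptor of tissue Tregs, averaged 16729 ± 8211 in synovial and 1182 ± 95.6 in arthritic node Tregs (log2 3.71 ± 0.26 SE, limma adjusted p = 5.38e-07). Cxcr6, another chemokine receptor of tissue T cells, averaged 26040 ± 4738 in synovial and 2132 ± 990.2 in arthritic node Tregs (adjusted p = 1.93e-05). Over all genes tested between arthritic and control node Tregs, 0.335% were called higher and 0.00881% lower, so 97.4% of calls were higher. The pathway lists held 3 of these calls, all receptors, and all higher. Among them were Ccr2, with a log2 difference of 2.68, and Gpr183, with 1.01. Both of these calls were lost without arthritic node library 2 or 3, and both were lost when only the 6 node libraries entered the fit.

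**Figure D4:**
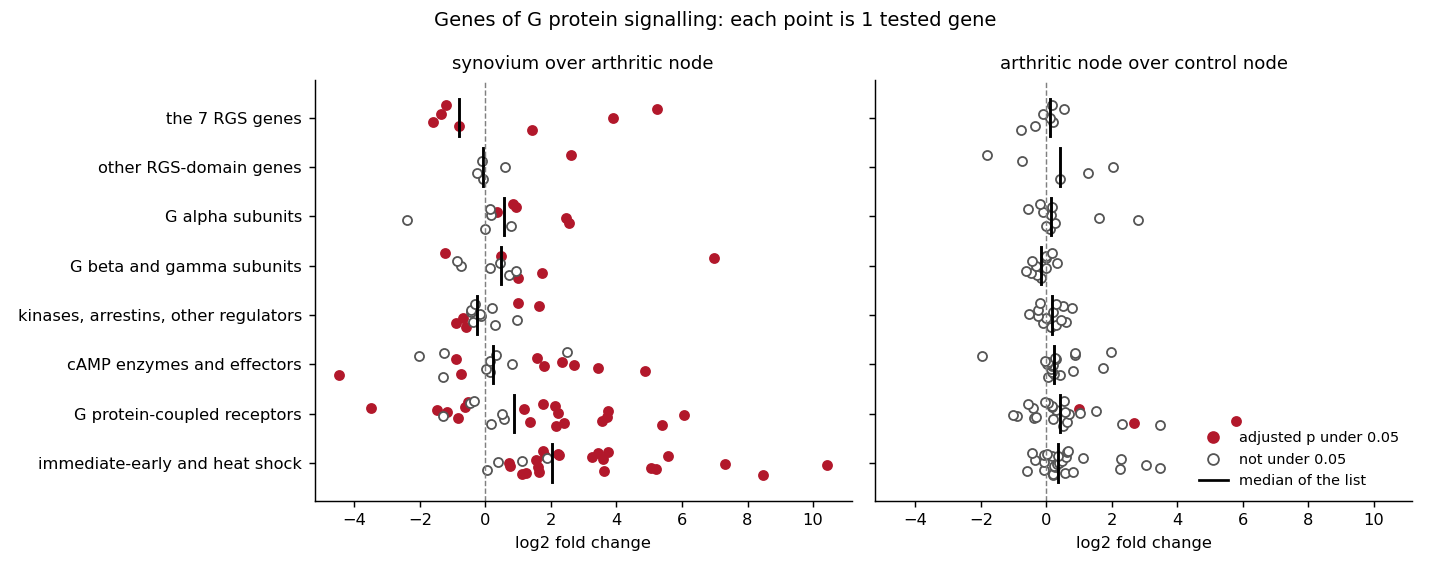
Log2 fold changes of every tested gene in 8 lists, in synovial over arthritic node Tregs (left) and arthritic over control node Tregs (right). Filled points are called genes and black lines the list medians. On the left the 7 Rgs members lie on both sides of 0 and all 5 called G alpha genes above it (Gnai3 flips under quantile normalization), and on the right the 3 called genes are receptors.

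Across the 9 libraries, each member was set beside the genes whose centred log2 profile was nearest to its own, by root mean square difference, among 8932 genes. For Rgs2 these were Pqlc1, a membrane transporter-like protein (difference 0.26), and Crem (0.28). Rgs16 was nearest to Tnfrsf9, the costimulatory receptor 4-1BB (0.44), and Ccr8 (0.47). In both Tnfrsf9 and Ccr8, as in Rgs16, synovial library 3 was the highest, with 81862 normalized counts of Tnfrsf9 against 47838 and 39265 in synovial libraries 1 and 2. Rgs19 was nearest to Prkcq, a kinase of T cell receptor signalling (0.09), and Apbb1ip, an adaptor of integrin activation (0.11).

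The nearest profiles to Rgs10 were Cd96, an adhesion and inhibitory receptor of T cells (0.11), and Galm (0.12). For Rgs14 they were Plin3 (0.19) and Senp7 (0.19), for Rgs3 the folate carrier Slc19a1 (0.16) and Chst12 (0.19), and for Rgs1 Bmyc (0.20) and Ergic1 (0.23). The gap between synovial and node libraries weighs on most of these profiles, though for Rgs1 the arthritic nodes also lay below the control nodes. Likeness here is a description only.

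Depth was even, at 11300406 to 12855435 reads per library. Foxp3, the gene behind the sort, was present in all 9 libraries, with 443, 413 and 538 normalized counts in synovial Tregs, 222, 294 and 291 in arthritic node Tregs and 224, 170 and 404 in control node Tregs. Control node library 1 stood apart on the second principal component, which held 10.9% of the variance. A list of 26 immediate-early and heat shock genes, known to respond to tissue digestion as well as to stimulation, moved with the synovial libraries. Of these, 22 rose and none fell against arthritic nodes, beside 17.9% higher and 15.9% lower over all genes. The list summed to 309090 to 346750 normalized counts in synovial, 75696 to 106040 in arthritic node and 73671 to 86499 in control node Tregs. Its genes differed in which synovial library was highest. Fos had 6792, 4110 and 17607 in synovial libraries 1 to 3, and Hspa8 had 41658, 60255 and 28519. Paws and nodes were both digested, and the part of this in the Rgs differences was not tested.

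Marker genes of other cells gave mixed values beside the members. Dendritic markers summed to 12966 to 15836 normalized counts in synovial, 4434 to 5331 in arthritic node and 3099 to 4733 in control node Tregs. Cd74 made up most of these sums. Against arthritic nodes 3 of 4 tested genes rose (Cd74, Xcr1 and Zbtb46), beside 17.9% of all genes. H2-Aa, the other tested gene, averaged 55.9 in synovial and 69.7 in arthritic node Tregs (limma adjusted p = 0.471). Itgax and Clec9a were at 0 in synovium. Fibroblast markers summed to 591, 348 and 2495 in synovial libraries 1 to 3, 966 to 1321 in arthritic node and 1003 to 1427 in control node libraries. None of the 6 tested was called higher and 1, Prg4, fell, and Prg4 made up most of the node sums. The other 5 averaged higher in synovial than in arthritic node Tregs, mainly through synovial library 3. Dcn, for example, had 16.5, 25.8 and 455 in synovial and 0, 0 and 41.1 in arthritic node libraries (log2 4.11 ± 1.62 SE, limma adjusted p = 0.0696). Synovial library 3, with the highest fibroblast sum, also had the highest Rgs1 and Rgs16. Without it the log2 differences from arthritic nodes were still called for all 7 members. Mast cell markers summed to 407 to 835 in synovial, 37.5 to 128 in arthritic node and 77.3 to 109 in control node Tregs. Kit rose and made up most of the synovial sums. Cpa3 went the other way, with 4.41, 0 and 14.6 in synovial and 34.8, 16.4 and 35.8 in arthritic node Tregs (limma adjusted p = 0.0502). Mcpt4, Cma1, Tpsb2, Mcpt8 and Fcer1a were at 0 in synovium. Macrophage markers summed to 13.5 to 117 in synovial, 32.7 to 532 in arthritic node and 73.1 to 372 in control node Tregs. Neutrophil markers summed to 6.61 to 52.8, 0 to 7.86 and 0 to 1.00 in those groups. Markers of CD8 and natural killer cells summed to 1788 to 2661 in synovial and 1164 to 1605 in arthritic node Tregs. In control node Tregs they summed to 1199 to 1668. Nkg7 rose and Prf1 fell in synovial against arthritic node Tregs, and Cd8a, Ncr1 and Klra8 were at 0 in synovium. Of the B cell, endothelial and platelet markers tested, none rose. Their part in the Rgs differences was not tested.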

How the data were processed

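RNA of sorted Tregs was sequenced from 9 libraries, prepared with a directional kit per the labels' protocols. The submitters' processing notes name HISAT2, HTSeq, DESeq2 and mm10. Not given in the sources used here are versions, annotation and strand setting. The authors' deposited expression table holds a normalized signal, gene counts that were each divided by their library's size factor. In each library 100% of nonzero values were whole multiples, within 0.01, of a constant, so the read counts behind the deposited values could be recovered. The authors' deposited comparison table gives log2 fold changes, a Wald score, p-values and mean normalized signal, per the file headers. Its direction, synovial over arthritic node, was settled by rerunning DESeq2.

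limma 3.58.1 in R 4.3.3 was fitted to log2(value + 1) of 11357 genes whose mean reached 10, with a mean-variance trend and all 9 libraries. A fold change is the difference between group means on that scale, which understates changes of low genes. Tests were two-sided, with Benjamini-Hochberg adjustment over all tested genes. Alternatives used edgeR 4.0.16 and DESeq2 1.42.0 on recovered reads, other pseudocounts, filters, scalings and variance models, a 2-fold threshold, a mouse block, and each library left out. Titles number separate mice and give synovial and node libraries of an arthritic mouse the same number, so these were read as pairs. Residuals of same-numbered synovial and arthritic node libraries correlated at 0.024, 0.054 and 0.089. Those of same-numbered arthritic and control node libraries, which are different animals, correlated at 0.0046, 0.067 and 0.07. These values cannot tell whether the pairs are the same animals. Scripts were tested on simulated data.

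The members and gene lists were chosen with earlier results of these data known. Named genes were the members, up to 4 called genes per list and comparison with the largest change whose higher group averaged at least 50, list genes with a mean of 200 or more, and for each member its 2 nearest profiles. Positions and principal transcripts came from GENCODE vM21, promoters from RefSeq. Where several transcripts of a gene ranked equally as principal, the longest was used. Markers of other cells and remaining genes of small counts are named too, chosen after their values were seen. A gene that this rule allows is not reported here, though it is in the counts.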

Additional observations from a re-analysis of the deposited data

How the results depend on the processing

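In synovial against arthritic node Tregs, the 7 members gave 84 values under other settings and 42 without 1 library. All kept their direction, and 83 and 40 of them kept their call; the exceptions were Rgs10 under a 2-fold threshold and Rgs3 without 1 of 2 libraries. With the replicate block, which in this comparison pairs libraries by mouse, 3776 genes were called against 3844, and no member changed its call. Against control node Tregs, 77 of 84 and 33 of 42 values kept their call and all kept their direction; the lost calls were those of Rgs1 and Rgs3. In arthritic against control node Tregs the members' signs were less stable, but no value was called. Without 1 library, Rgs16 ranged from -0.25 (without arthritic node library 2) to 0.58 and reversed also without arthritic node library 1, at -0.02. Rgs19 ranged from -0.16 to 0.011 (without arthritic node library 1), and Rgs3 from -0.13 (without control library 2) to 0.42. The count of called genes there was 39. It was 10 without the variance trend, 0 with only these libraries (1101 at an unadjusted p under 0.05), 0 with the block, which there joins different animals that share only a number (1176 unadjusted), and 173 with DESeq2 (136 higher, 37 lower), and 0 to 66 without 1 library. The share of calls that were higher was 97.4% with limma and 78.6% with DESeq2. A 2-fold threshold left 2146 calls of 3844 for synovial against arthritic node and 2646 of 4551 against control node Tregs. Quantile normalization moved the median of all genes to -0.12 and -0.13 in those comparisons, with 42.2% and 42.1% of calls higher in place of 52.9% and 53.9%. Under it Gnai3 reversed to -0.0087. The causes were not tested. Depth was lowest for Rgs3, at 64 to 339 reads per library, and the standard error was the largest of the 7 for Rgs16.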
